A study of Mus musculus with 12 samples.

Results

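In cultured mouse macrophages, 10 genes of the liver X receptor (LXR) pathway and of cholesterol export were examined, out of the 43626 genes in the count tables. They are a named set, chosen with earlier results of these data known, and comprise the receptors Nr1h3 (LXRα) and Nr1h2 (LXRβ), the partner receptor Rxra (RXRα), the exporters Abca1 and Abcg1, the lipoprotein genes Apoe and Pltp, the phospholipid enzyme Lpcat3, and the sterol hydroxylases Ch25h and Cyp27a1. All 10 were found by their identifiers and passed the filter on low counts, which left 14308 genes for testing. The cells were bone marrow–derived macrophages (BMDMs), macrophages grown in culture from mouse marrow, in 4 conditions with 3 RNA-Seq libraries each. Control cells received PBS. The other conditions were the milk sugar 3′sialyllactose (3′SL, 100 μg/mL, labelled HMO), bacterial lipopolysaccharide (LPS, 10 ng/mL), and LPS + 3′SL, all for 6 hours. Doses and time come from the study's text, since the labels do not give them for these cultures. The labels' treatment field describes injections of mice, whereas their extraction field describes macrophage cultures with these 4 conditions. The labels name neither separate cultures nor donor mice, so p-values measure the spread between these libraries, which may be technical. The strain, sex, and age of the donor mice were not given in the sources used here.

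LXRs are nuclear receptors that bind DNA together with RXR and are switched on by oxidized forms of cholesterol (oxysterols) and by desmosterol, an intermediate of cholesterol synthesis. In macrophages loaded with cholesterol, they turn on transporters that hand the excess to lipoprotein particles, a process known as cholesterol efflux. LXRs are also known for restraining inflammatory genes in macrophages, which is why this pathway is of interest where LPS and 3′SL are combined.

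Libraries held 20411741 to 26851890 reads counted on genes (median 23375851). Library numbers and residuals both placed the 12 libraries in 3 sets, and a set holds 4 consecutive numbers with every condition present 1 time. These sets were found by clustering the libraries' residual correlations and are not named in the labels. After condition means were removed, libraries of the same set correlated at 0.596 on average and libraries of different sets at −0.346. The clustering was set to give 3 sets and used these same correlations, so a higher value within sets was built in. Each value below is given in the order of set 1, set 2, and set 3. Macrophage markers (Adgre1, Csf1r, Cd68, Itgam, Lyz2, Mertk) were detected in every library, with a summed level of 17320 to 25530 CPM (reads of a gene scaled to a common library size), whereas lymphocyte markers reached at most 0.322 CPM and dendritic cell markers 1.51 CPM. Stromal markers summed to 619 to 714 CPM in the 4 libraries of set 1 and 27 to 106.2 CPM in the others. LPS raised all 7 genes of a fixed check list (Il6, Tnf, Nos2, Ptgs2, Il1b, Cxcl10, Ifit1), with a median log2 fold change of 8.89, so the labels for LPS held.

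Upstream sequence is shown for Abca1 and Ch25h, an exporter and an oxysterol enzyme on which the results below turn, because it carries most of the motif matches found before the starts. Both stretches are from RefSeq (GRCm38.p6, minus strand) and run from position −160 to position −20 before the transcription start. Capitals in Abca1 (chr4:53159915-53160055) mark a loose match to the LXR element and a TATA box (TATAAA). Capitals in Ch25h (chr19:34475168-34475308) mark a TATAAA and a cAMP response element (TGACGTCA).
Abca1: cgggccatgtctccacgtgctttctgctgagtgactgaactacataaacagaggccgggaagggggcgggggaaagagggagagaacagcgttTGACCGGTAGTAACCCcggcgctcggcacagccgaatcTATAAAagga
Ch25h: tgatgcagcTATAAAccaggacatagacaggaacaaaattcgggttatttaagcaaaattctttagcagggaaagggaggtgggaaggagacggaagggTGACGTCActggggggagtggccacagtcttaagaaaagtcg

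The LXR element is a repeat of AGGTCA with 4 bases between its copies (a DR4), searched on both strands with up to 3 mismatches over its 12 fixed letters. In the 300-base RefSeq windows around the starts (250 bases before, 50 after), the Abca1 match lay at −67 to −52 on the opposite strand. A second match, GTGGCAggaaAGGTCA, lay at −58 to −43 of the second Rxra start. These 2 windows, of 13 windows for 9 of the genes, compare with 21.9% of all windows. Abcg1 had no entry in the table. With at most 2 mismatches, no window of these genes matched, against 3.02% of all windows. An NF-κB motif (GGGA, any 2 bases, TTCC, on both strands) was found in 0 of the 13 windows, against 1.47% of all. TATAAA occurs in 13.6% of all windows, and TGACGTCA, found at −61 to −54 of Ch25h, in 1.79%. Such matches describe letters in a window, not bound sites.

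Of the LXR and RXR receptor genes, Nr1h3 rose with LPS, Rxra fell, and Nr1h2 changed little. Nr1h3 encodes LXRα (chromosome 2, 91184061 to 91202834 of GRCm38, minus strand). Its levels were 13.2, 19.1, and 25.4 CPM with PBS and 71.3, 95.5, and 80.1 CPM with LPS. With 3′SL they were 10.4, 15.3, and 15.7 CPM, and with LPS + 3′SL 55, 73.9, and 70.1 CPM. Every library with LPS lay above every library without it. The log2 fold change from PBS to LPS was 2.10 (SE 0.24, 4.27-fold, adjusted p = 5.12e-05 in the quasi-likelihood test of edgeR, adjusted by Benjamini-Hochberg over all genes), and from 3′SL to LPS + 3′SL it was 2.26 (SE 0.25, adjusted p = 5.34e-05). Nr1h3 shares 34 bases of exon with Gm13783 on the same strand. A gene is called below where its adjusted p is under 0.05 and its change at least 1.5-fold.

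Rxra, which encodes an RXR partner of LXR on DNA, moved in the opposite direction (chromosome 2, 27676440 to 27762957, plus strand). PBS libraries held 88.4, 98.6, and 90.1 CPM, and LPS libraries 30.3, 23.8, and 20.5 CPM. The 3′SL libraries held 86.6, 89.5, and 90.6 CPM, and those with LPS + 3′SL 32.1, 29.8, and 29.7 CPM. The groups with and without LPS did not overlap, and Rxra fell by 1.89 on the log2 scale with LPS (SE 0.13, 3.71-fold lower, adjusted p = 1.67e-06). On top of 3′SL it fell by 1.54 (SE 0.13, adjusted p = 9.18e-06).

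Nr1h2 encodes LXRβ (chromosome 7, 44549616 to 44553951, minus strand). It held 65.4, 65.4, and 78.8 CPM with PBS, 70.3, 73.8, and 85.1 CPM with 3′SL, 82.4, 89.1, and 99.8 CPM with LPS, and 83.5, 94.9, and 116.5 CPM with LPS + 3′SL. Libraries with LPS alone all lay above those with PBS, yet the difference of 0.37 on the log2 scale (95% interval 0.06 to 0.68, adjusted p = 0.0487) stayed under 1.5-fold, so it was not called.

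Levels of different genes can be compared per kilobase of exon. On that scale, the ratio of Nr1h3 to Nr1h2 (mean ± SD of 3 libraries) was 0.364 ± 0.084 with PBS and 0.240 ± 0.040 with 3′SL. It was 1.22 ± 0.19 with LPS and 0.906 ± 0.121 with LPS + 3′SL. Thus, per kilobase, Nr1h3 was the lower of both LXR genes in all 6 libraries without LPS and the higher in all 3 with LPS alone. The latter depends on the exon lengths used (2515 bases for Nr1h3 and 3354 for Nr1h2). In CPM with LPS, Nr1h3 lay below Nr1h2 in set 1 (71.3 against 82.4) and set 3 (80.1 against 99.8). It lay above Nr1h2 in set 2 (95.5 against 89.1). The ratio of Rxra to Nr1h3 went from 2.36 ± 0.72 with PBS to 0.143 ± 0.046 with LPS. Rxrb, which encodes the related receptor RXRβ, fell less than Rxra (log2 fold change −0.74, SE 0.11, adjusted p = 0.000244), and the ratio of Rxra to Rxrb was 1.99 ± 0.19 with PBS and 0.904 ± 0.242 with LPS.

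**Figure D1:**
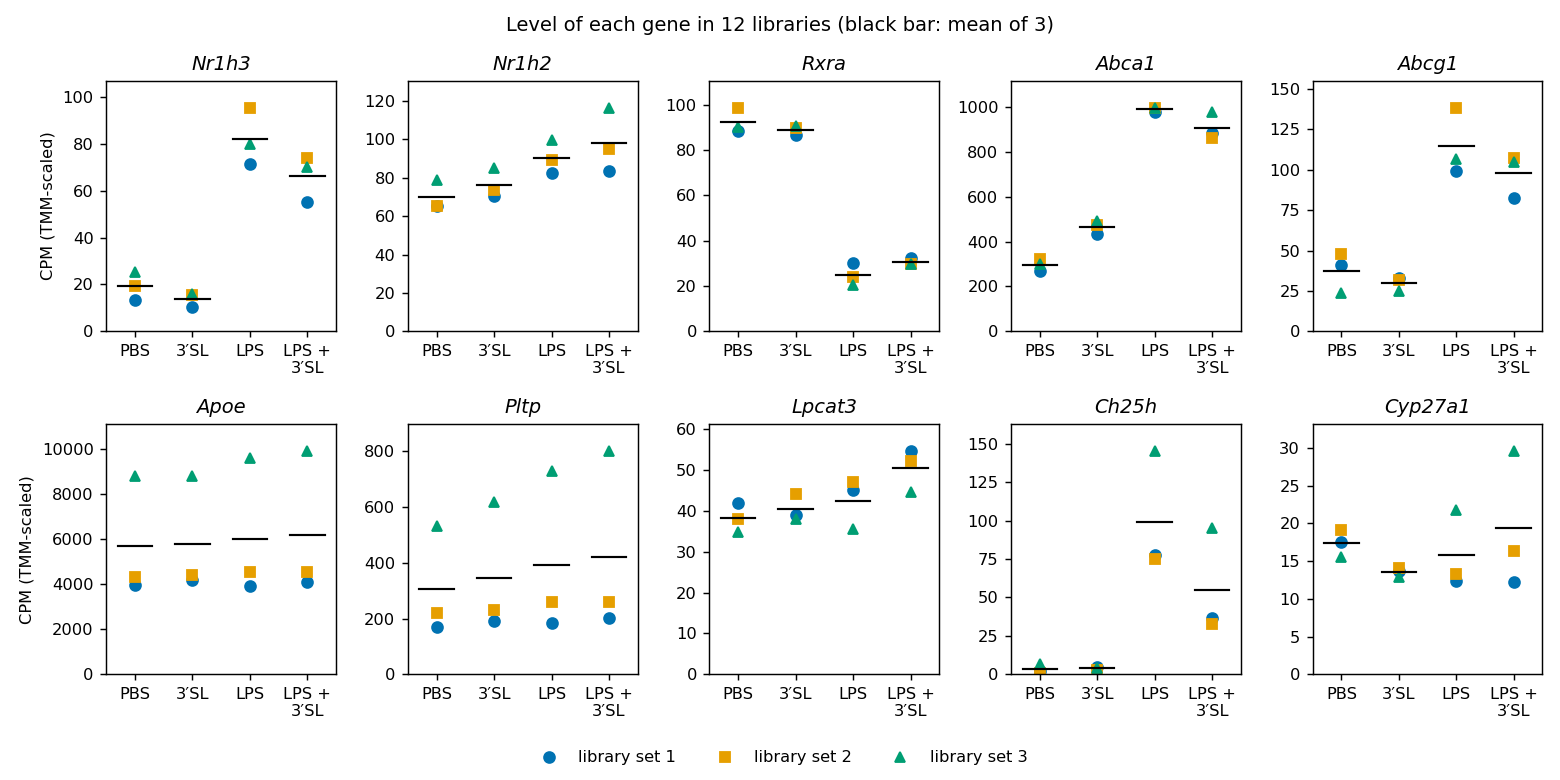
Level of each of the 10 genes in CPM (vertical axes, from 0) in the 4 conditions, with 1 point per library, symbols for the 3 library sets, and a bar for the mean of 3. Nr1h3, Abca1, Abcg1, and Ch25h were higher and Rxra lower in every library with LPS than in any without it, and Apoe and Pltp were highest in set 3 in all conditions.

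Both exporters rose with LPS. Abca1, which moves cholesterol and phospholipid onto lipid-poor apolipoprotein A-I (chromosome 4, 53030787 to 53159895, minus strand), held 268, 322, and 299 CPM with PBS and 979, 998, and 998 CPM with LPS. The 3′SL libraries lay between these, at 433, 473, and 494 CPM. With LPS + 3′SL, Abca1 held 887, 861, and 979 CPM. None of the 4 groups overlapped with another, since the highest library with LPS + 3′SL, in set 3, lay just under the lowest with LPS, in set 1. The log2 fold change with LPS was 1.74 (SE 0.11, 3.34-fold, adjusted p = 1.31e-06). On top of 3′SL it was 0.96 (SE 0.11, 1.95-fold, adjusted p = 7.18e-05).

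Abcg1, which passes cholesterol on to HDL particles that already carry lipid (chromosome 17, 31057675 to 31117988, plus strand), held 40.7, 48.1, and 23.6 CPM with PBS and 99.4, 138.4, and 106.5 CPM with LPS. It held 33.3, 31.5, and 25.2 CPM with 3′SL and 82.3, 107.6, and 104.7 CPM with LPS + 3′SL. Every library with LPS was above every library without it, and set 3 was the lowest of the PBS libraries. The log2 fold change was 1.61 with LPS (SE 0.24, adjusted p = 0.00029) and 1.71 with LPS on top of 3′SL (SE 0.24, adjusted p = 3e-04). Per kilobase, Abca1 exceeded Abcg1 by 6.09 ± 2.45 times with PBS, 11.2 ± 2.4 times with 3′SL, 6.20 ± 0.99 times with LPS, and 6.60 ± 0.98 times in cells given both (SD, n = 3).

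Apoe and Pltp, whose products carry lipid or remodel lipoproteins outside the cell, differed more between library sets than between treatments. Apoe (chromosome 7, 19696109 to 19699188, minus strand) held 3969, 4324, and 8787 CPM with PBS, 4169, 4384, and 8789 CPM with 3′SL, 3922, 4536, and 9581 CPM with LPS, and 4078, 4533, and 9891 CPM with LPS + 3′SL. Pltp, the phospholipid transfer protein (chromosome 2, 164839518 to 164857711, minus strand), held 170.8, 219, and 529 CPM with PBS and 185.6, 257.5, and 729 CPM with LPS. It held 189.6, 231.5, and 618 CPM with 3′SL and 201.9, 259.0, and 799 CPM with LPS + 3′SL. Set 3 was the highest and set 1 the lowest in every condition for both genes, and set 3 exceeded the mean of the other sets by 1.13 for Apoe and 1.64 for Pltp on the log2 scale. After condition means were removed, their levels correlated at 0.995 over the 12 libraries, a description of libraries that share these sets. The summed stromal markers were highest in set 1, where both genes were lowest. They were lowest in set 2, however, whereas both genes were highest in set 3. The part of these markers in the values of Apoe and Pltp was not tested.

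Because of this spread, the differences with LPS were known poorly without the sets in the model. They were 0.08 for Apoe (95% interval −1 to 1.16, adjusted p = 0.92) and 0.35 for Pltp (−1.21 to 1.91, adjusted p = 0.728) on the log2 scale. With the 3 sets as a block, the difference for Apoe was 0.06 (−0.11 to 0.23, adjusted p = 0.527). For Pltp it was 0.27 (0.08 to 0.46, adjusted p = 0.0187), under 1.5-fold, and higher in 3 of 3 sets, where 75.1% of all genes moved the same way in all sets. Pltp shares 495 bases of exon with Ctsa on the opposite strand, and the strand setting of the counting is not given in the sources used here.

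Lpcat3, which builds polyunsaturated chains into membrane phospholipids (chromosome 6, 124663027 to 124704418, plus strand), ranged between 34.9 and 54.6 CPM over all libraries. Its mean was 38.3 ± 3.4 CPM with PBS, 40.3 ± 3.2 with 3′SL, 42.5 ± 6.2 with LPS, and 50.4 ± 5.3 in cells given both (SD, n = 3). The difference of 0.15 with LPS was within its error (95% interval −0.13 to 0.44, adjusted p = 0.367). The libraries with LPS + 3′SL lay above those with 3′SL, by 0.32 on the log2 scale (0.04 to 0.61, adjusted p = 0.075), also without a call. Lpcat3 overlaps Emg1 on the opposite strand over 334 bases.

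Of the sterol hydroxylases, Ch25h rose with LPS and Cyp27a1 was not called. Ch25h makes 25-hydroxycholesterol, an oxysterol that activates LXRs and blocks the processing of SREBPs, the factors that drive cholesterol and fatty acid synthesis. It is a gene of a single exon (chromosome 19, 34473778 to 34475164, minus strand). PBS libraries held 2.30, 0.596, and 7.08 CPM, the lowest from 17 reads, and 3′SL libraries 5.02, 2.67, and 3.98 CPM. LPS libraries held 77.6, 74.9, and 145.2 CPM, and those with LPS + 3′SL 37.0, 33.0, and 94.9 CPM. All libraries with LPS lay far above those without, and set 3 was the highest in both LPS conditions. The log2 fold change was 4.90 with LPS (SE 0.76, 29.8-fold, adjusted p = 0.000374) and 3.82 with LPS on top of 3′SL (SE 0.73, adjusted p = 0.002). Ch25h overlaps the opposite-strand gene Gm26902 over 159 bases, and that gene had 330 reads in all libraries together.

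Cyp27a1 makes 27-hydroxycholesterol in mitochondria (chromosome 1, 74713574 to 74737892, plus strand). It held 17.5, 19.2, and 15.6 CPM with PBS, 13.7, 14.0, and 12.9 CPM with 3′SL, 12.3, 13.3, and 21.8 CPM with LPS, and 12.3, 16.4, and 29.6 CPM with LPS + 3′SL. With LPS it was lower in sets 1 and 2 (log2 ratios of −0.51 and −0.53) and higher in set 3 (0.49). The sum of 5 neutrophil markers was also highest in set 3 with LPS, at 182.3 CPM, or 167.4 CPM with LPS + 3′SL. It was 27.5 to 93.0 CPM in all PBS libraries. In set 3 with LPS it came mostly from S100a8 (146.7 CPM) and Camp (31.8 CPM). From PBS to LPS in set 3, Ly6g went from 0.47 to 1.04 CPM, whereas Elane fell from 1.38 to 0.92 CPM and Mpo from 3.44 to 1.78 CPM. Any part of these markers in the value of Cyp27a1 was not tested. The fitted difference was −0.14 (95% interval −0.80 to 0.52, adjusted p = 0.744).

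In all, 5 of the 10 genes were called for LPS against PBS, 4 higher and 1 lower, where 38.5% of all genes tested were called (18.3% higher and 20.2% lower). The PBS and LPS libraries did not overlap for 6 of the 10, against 58.4% of all genes. For LPS + 3′SL against 3′SL, the same 5 genes were called, in the same directions, where 29.2% of all genes were (14.3% higher and 14.8% lower), and again 6 of 10 did not overlap, against 46.6%. The block of library sets left the calls of the 10 genes as they were in both comparisons, while 44.6% and 35.8% of all genes were called. Both comparisons use separate libraries. The median log2 fold change of the 10 was 0.36 with LPS and 0.44 with LPS on top of 3′SL, beside −0.06 and −0.07 over all genes.

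Part of these values rests on how library sizes were scaled, since TMM factors, which set the typical gene to no change, were 1.08 to 1.30 in libraries without LPS and 0.700 to 0.939 in those with it. With total counts alone, the median gene fell by 0.71 on the log2 scale with LPS, and the calls over all genes went from 2613 higher and 2889 lower to 1535 higher and 6657 lower. On top of 3′SL, they went from 2051 higher and 2120 lower to 1350 higher and 4856 lower. For LPS against PBS, Nr1h3 (1.45), Abca1 (1.09), Abcg1 (0.96), Ch25h (4.23), and Rxra (−2.52) stayed called. Nr1h2 (−0.29), Apoe (−0.61), Lpcat3 (−0.49), and Pltp (−0.36) turned sign without a call, and Cyp27a1 was called lower (−0.83, adjusted p = 0.00986). Relative to the median gene of each scaling, the values hardly differed, with Nr1h3 2.16 above it under both, Abca1 1.80 under both, Apoe 0.14 or 0.10, and Cyp27a1 −0.08 or −0.12. Changing the scaling shifts all genes nearly alike, so this agreement was fixed in advance and does not tell which scaling is right.

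**Figure D2:**
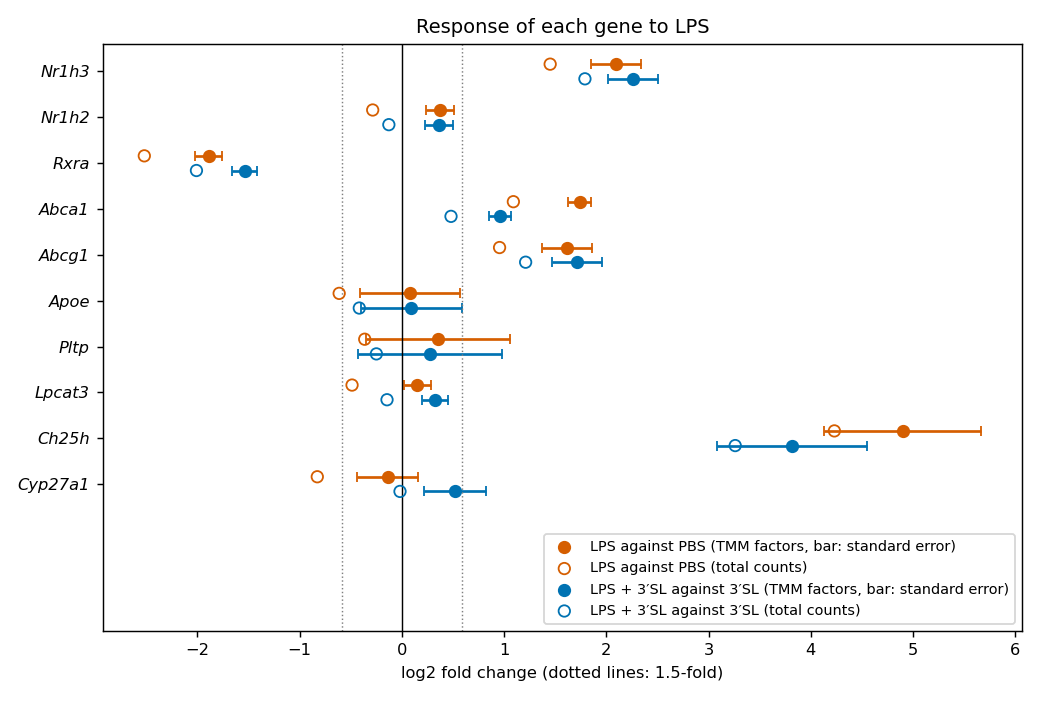
Log2 fold change of each gene with LPS (horizontal axis) against PBS and, on top of 3′SL, against 3′SL. Filled points with standard errors use TMM factors, open points total counts, and dotted lines mark 1.5-fold. Under total counts every point lies further to the left, yet Nr1h3, Abcg1, and Ch25h stay right of the upper line in both comparisons and Rxra left of the lower line, whereas Abca1 on top of 3′SL falls from 0.96 to 0.48.

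In the order of levels per kilobase, Apoe came first in every condition (mean 2660 CPM per kb with PBS and 2810 with LPS) and Pltp had the next highest mean (119.6 and 152.5), though it overlapped with Abca1 in both LPS conditions. Ch25h was last with PBS (2.40, range 0.43 to 5.11) and overlapped with Abcg1 (5.14), its neighbour. With LPS, Ch25h came just after Abca1 (71.5, range 54.0 to 105.0) overlapped with Abca1 (95.7), and did not overlap with Nr1h3 below it (32.7). Rxra, in the middle with PBS (16.9), was last with LPS (4.55, range 3.75 to 5.54) and did not overlap with Cyp27a1 above it (7.27). Nr1h3 and Nr1h2 overlapped in both LPS conditions.

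The 3′SL comparisons ask whether the milk sugar changed these genes at rest or under LPS. For 3′SL against PBS, 0 of the 10 genes and 0 of all 14308 genes were called (0%), and Abca1 came closest. It was higher with 3′SL by 0.65 on the log2 scale (SE 0.11, 95% interval 0.41 to 0.90, 1.57-fold, unadjusted p = 9.85e-05, adjusted p = 0.252). The increase was 0.69, 0.56, and 0.72 within the 3 sets, and the groups did not overlap (exact permutation test, 2-sided, p = 0.1, the smallest that 3 against 3 libraries allow). With the library sets as a block, Abca1 was called (0.65, SE 0.08, adjusted p = 0.00299), where 2.84% of all genes were, and DESeq2's Wald test also called it (adjusted p = 5.33e-06, with 88 genes called in all). Leaving out set 1 or set 2 from the block fit gave 0.64 (adjusted p = 0.13) and 0.70 (adjusted p = 0.0808), and leaving out set 3 gave 0.60 (adjusted p = 0.000728). Under total counts with the block, the increase was 0.57 (adjusted p = 0.00793), just under 1.5-fold.

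With LPS present, the fitted difference of Abca1 with 3′SL was −0.13 on the log2 scale (95% interval −0.37 to 0.12, adjusted p = 1, not called), with −0.14, −0.21, and −0.03 within the sets. The groups did not overlap, as for 12.7% of all genes. The difference between both changes, the interaction, was −0.78 (SE 0.15, adjusted p = 0.505) without the block and −0.78 (SE 0.11, adjusted p = 0.011) with it, where 1.55% of all genes were called. It was −0.83, −0.77, and −0.75 within the sets, where 48.6% of all genes had 1 sign in all sets, and total counts gave −0.61 in both fits (adjusted p = 0.561, or 0.041 with the block, where the median gene lay at 0.17). Without set 1 or set 2, the block fit gave −0.76 (adjusted p = 0.362) and −0.79 (adjusted p = 0.213), and without set 3 its adjusted p was 0.0018.

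For the other 9 genes, the edgeR fit called no change with 3′SL, with or without LPS, and no interaction. At an unadjusted p under 0.05 and 1.5-fold, the count was 1 of 10 for 3′SL against PBS (Abca1) and 0 of 10 for LPS + 3′SL against LPS, where 4.33% and 2.81% of all genes were counted. DESeq2 gave the same counts for the 10 at its adjusted p, with 0.615% and 0.79% of all genes. Cyp27a1 was the other gene whose 3′SL and PBS libraries did not overlap, lower by 0.36 on the log2 scale (95% interval −1.02 to 0.30, adjusted p = 0.744), and 2 of 10 such genes compare with 17.5% of all. Nr1h3 was lower with 3′SL in 3 of 3 sets without LPS (−0.35, −0.32, −0.69) and in 3 of 3 with LPS (−0.37, −0.37, −0.19). Its fitted values of −0.48 (95% interval −1 to 0.05, adjusted p = 0.551) and −0.31 (−0.83 to 0.21, adjusted p = 0.983) did not pass the test, nor did they with the block (adjusted p = 0.0645 and 0.248). The same direction in all sets was common, at 51.3% of all genes without LPS and 47% with it.

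Under LPS, Ch25h was lower with 3′SL in each set (−1.07, −1.18, −0.61), by 0.85 on the log2 scale in the fit (SE 0.64, 95% interval −2.27 to 0.57, adjusted p = 0.983). With the block, it was lower by 0.96 (SE 0.32, adjusted p = 0.164). It was called in the block fit without set 3 (−1.12, adjusted p = 0.00249), where 371 of 14396 genes were called. The block fits without set 1 or set 2, which called 1 of 14198 and 0 of 14426 genes, did not call it. Without LPS, the log2 ratios of Ch25h were 1.13, 2.14, and −0.83 at levels of at most 7.08 CPM. Rxra with LPS was higher with 3′SL in 3 of 3 sets (0.09, 0.32, 0.53), and Lpcat3 as well (0.28, 0.15, 0.33). Their fitted values of 0.30 (95% interval 0.02 to 0.57, adjusted p = 0.672) and 0.25 (−0.04 to 0.53, adjusted p = 0.811) did not pass. For Apoe, the block fit placed the change with 3′SL between −0.13 and 0.20 in both settings (95% intervals), which lies within 1.5-fold in either direction.

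**Figure D3:**
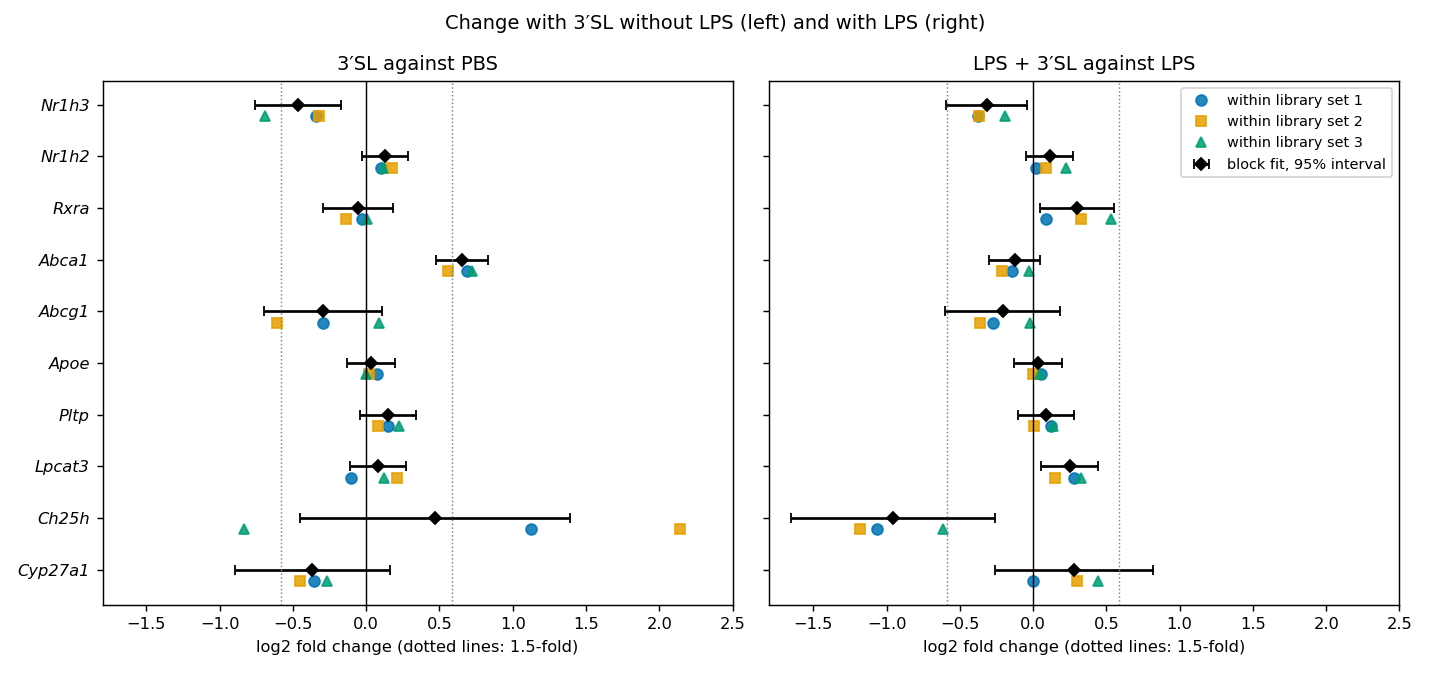
Log2 fold change with 3′SL (horizontal axes) without LPS on the left and with LPS on the right, where diamonds with 95% intervals are the fit with library sets as a block and the other symbols are ratios of 2 libraries within a set. For Abca1 all 3 sets lie between 0.56 and 0.72 on the left and between −0.21 and −0.03 on the right, and Ch25h spreads from −0.83 to 2.14 on the left.

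Other genes of the pathway, on lists chosen by function, were counted in the same way. Of 17 further LXR targets, 14 were tested, and 1 was called higher and 5 lower for LPS against PBS, where 18.3% of all genes were called higher and 20.2% lower. The median log2 fold change was −0.35, beside −0.06 over all genes. The largest decreases were in Arl4c, a small GTPase linked to cholesterol secretion (−2.63, SE 0.27, adjusted p = 2.09e-05), in the desaturase gene Scd2 (−1.82, SE 0.66), in Eepd1 (−1.69, SE 0.25), and in the fatty acid synthase gene Fasn (−1.60, SE 0.32). Arl4c went from 82.1, 71.1, and 99 CPM with PBS to 18.3, 10.1, and 12.5 CPM with LPS, so the groups were far apart. The 1 gene called higher, named after its values were seen, was Mertk, a receptor for the uptake of dead cells and also among the macrophage markers above (1.19, SE 0.23). Srebf1, the LXR target that drives fatty acid synthesis, is on this list and was not called. With 6 of 14 called beside 38.5% of all genes, the share of the list was near that of all genes. With the library sets as a block, Mylip, which marks the LDL receptor for degradation, was also called lower (−0.63, adjusted p = 0.0495).

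Of 12 partners and cofactors, 10 were tested, with 1 called higher and 4 lower, beside the same 18.3% and 20.2% of all genes (median −0.12, and −0.06 over all genes). They were Pparg, a nuclear receptor that also pairs with RXR (−2.00, SE 0.30), the coactivator genes Ncoa1 (1.22, SE 0.17) and Ncoa2 (−0.82, SE 0.15), Tbl1xr1 (−0.78, SE 0.14), and, beyond the 4 largest, Rxrb, given above. Of 6 further oxysterol genes, only 2 were tested, and both were called lower, beside 20.2% of all genes. Gpr183, the receptor with which immune cells follow oxysterol gradients, fell most (−3.84, SE 0.26, adjusted p = 1.53e-06), from 21.4, 20.3, and 32.0 CPM to 2.10, 1.60, and 1.41 CPM. Hsd3b7, which breaks down oxysterol ligands of Gpr183, fell by 1.14 (SE 0.13). Ch25h rose in the same libraries in which Gpr183 and Hsd3b7, the only tested genes of this list, fell. The other hydroxylase gene, Cyp27a1, was not called.

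Of 10 genes for the egress and esterification of cholesterol, 9 were tested. Among them, 2 were called higher and 3 lower, beside 18.3% and 20.2% of all genes (median −0.48, and −0.06 over all genes). Stard3, a sterol transfer protein of late endosomes, rose most (1.94, SE 0.26), from 48.3, 51.7, and 72.7 CPM to 178.4, 208.8, and 277.2 CPM. Npc2, which binds cholesterol inside lysosomes, rose by 0.91 (SE 0.19), whereas the cholesterol ester hydrolase gene Nceh1 (−1.87, SE 0.19) and the HDL receptor gene Scarb1 (−0.84, SE 0.13) fell. Npc1 was the third gene called lower (−0.72, SE 0.12). Among 6 relatives of Lpcat3, Lpcat2, which makes platelet-activating factor in activated macrophages, rose by 2.19 (SE 0.42) and Lpcat4 fell by 0.81 (SE 0.20). So 1 of 6 was called in each direction, beside 18.3% of all genes called higher and 20.2% lower. The block fit also called Mboat1 lower (−1.45, adjusted p = 0.0086). Under total counts, Mertk, Ncoa1, and Npc2 were no longer called, further genes were called lower (7 of 14 LXR targets and 7 of 10 cofactors in all, beside 46.5% of all genes), and no called gene of these lists turned sign.

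With 3′SL, 0 genes of these lists were called by edgeR in either comparison. In the block fit for LPS + 3′SL against LPS, where 1.45% of all genes were called (0.685% higher), 3 further LXR targets were higher. They were Eepd1 (1.05, SE 0.22, adjusted p = 0.0302), Arl4c (0.89, SE 0.16, adjusted p = 0.0142), and Fasn (0.86, SE 0.18, adjusted p = 0.0356), each higher in 3 of 3 sets and each lower with LPS alone. The same direction in all sets was seen for 47% of all genes. The LPS libraries enter both comparisons, so opposite signs in them are partly built in. For 3′SL against PBS, where the block fit called 2.84% of all genes, it called Lpcat2 higher (0.94, SE 0.11, adjusted p = 0.0024) and Lpcat1 lower (−0.59, SE 0.09, adjusted p = 0.00643). The interaction of Lpcat2 was called too in the block fit (−1.15, SE 0.15, adjusted p = 0.00886, negative in 3 of 3 sets). Of all genes, 1.55% were called in that interaction and 48.6% had the same direction in all sets. The 7 genes of the LPS check list had fitted values above 0 with 3′SL alone (median 0.88) and below 0 with 3′SL under LPS (median −1.12), with a median interaction of −2.44. None of them was called without the block. The block fit called 3 of 7 lower under LPS (Il6, Nos2, Il1b), beside 1.45% of all genes called in either direction. It called 3 of 7 in the interaction (Nos2, Ptgs2, Il1b), beside 1.55% of all genes.

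**Figure D4:**
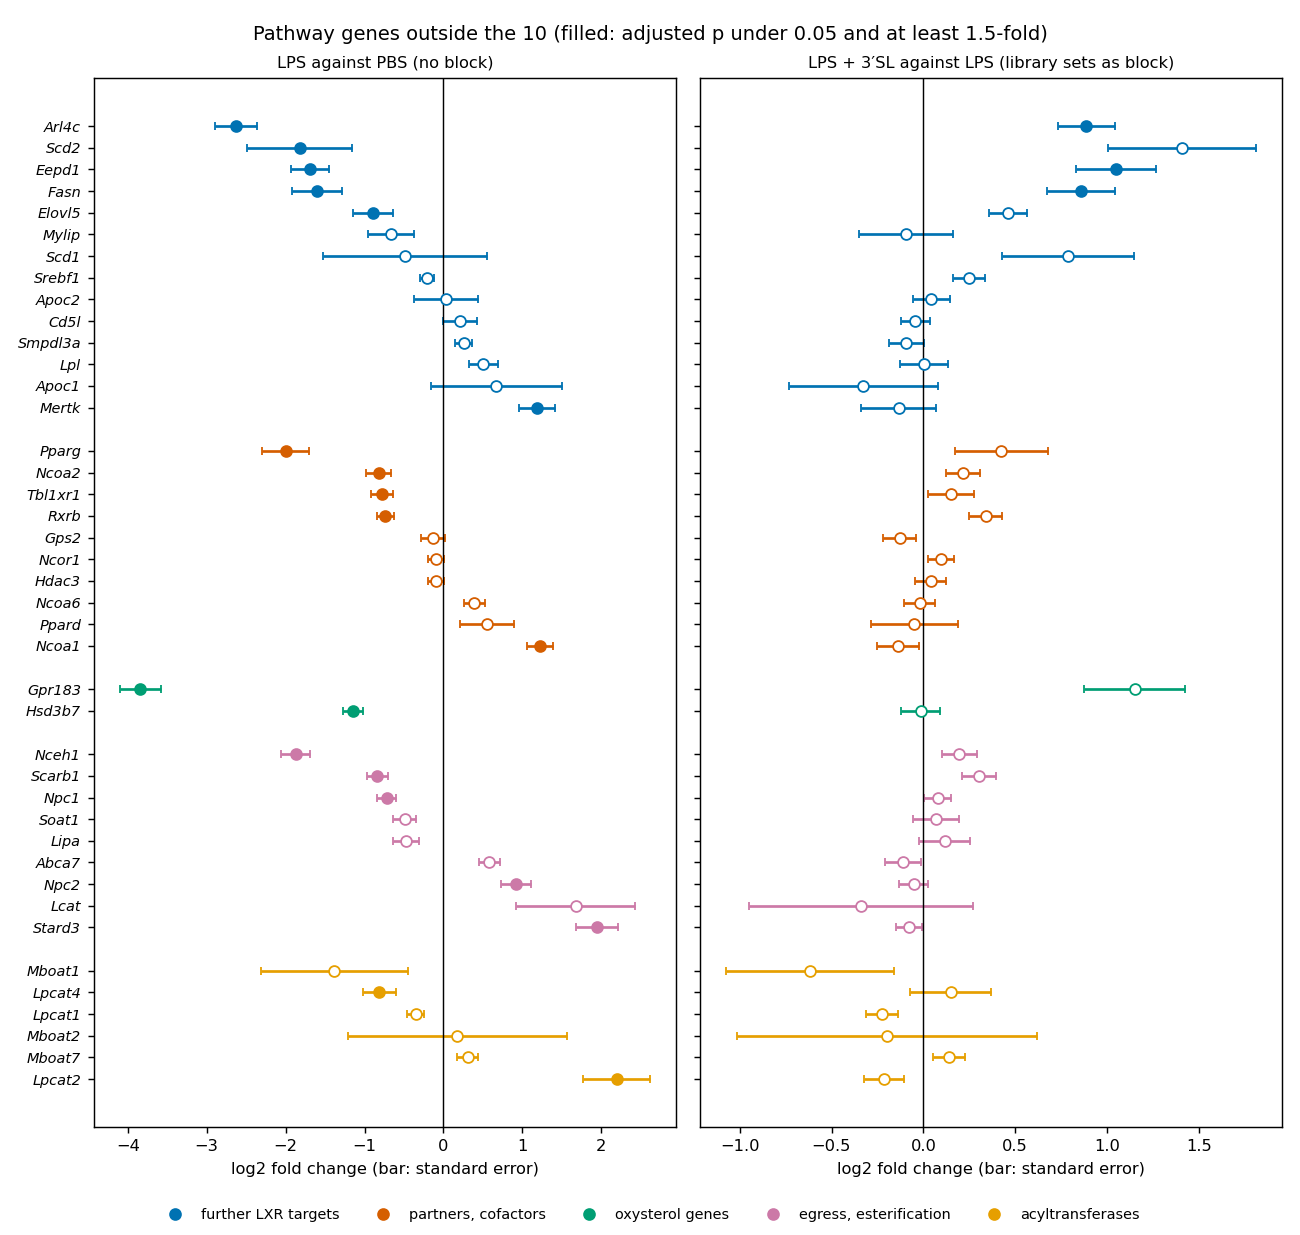
Log2 fold change with standard error (horizontal axes) of the tested genes of 5 pathway lists, for LPS against PBS without a block on the left and for LPS + 3′SL against LPS with library sets as a block on the right, where filled points are called. Gpr183 is farthest to the left with LPS (−3.84), and Arl4c, Eepd1, and Fasn, filled on the right, lie left of 0 with LPS. Both panels use the same LPS libraries.

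Genes with the pattern most like that of Nr1h3 over the 12 libraries were Plekho2, Sap30, and Spryd7 (Pearson r of log2 CPM from 0.984 to 0.988). For Abca1 they were Slc30a7, an unnamed gene, and Arcn1 (0.985 to 0.986), and for Ch25h Gm4596, Mrpl52, and Socs1 (0.977 to 0.982). These r values follow mainly the step between libraries with and without LPS, and 546, 383, and 312 genes reached an r over 0.95 with Nr1h3, Abca1, and Ch25h. After condition means were removed, other genes came first, namely Gm2962 (0.966), Diablo (0.978), and Ippk (0.943).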

How the data were processed

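The tables deposited hold unnormalized counts of reads on genes, 1 table for each of 12 libraries made from polyadenylated RNA with a stranded kit. Per the submitters' processing notes in the labels, Trimmomatic, STAR, and HTSeq were used, and their versions, the genome build, and the strand setting are not given in the sources used here. Between 33.2% and 37.1% of alignments were not counted on a gene and were left out. Replicates differed by more than sampling noise (chi-square of at least 14.6 per gene). The fit was made by edgeR 4.0.16 (R 4.3.3): filterByExpr, TMM factors, and 1 mean per condition in a quasi-likelihood fit over all libraries, with Benjamini-Hochberg adjustment over 14308 genes. CPM used TMM-scaled sizes. The block of library sets, DESeq2 1.42.0, total counts, other filters, and left-out libraries were alternatives. Identifiers were matched to GENCODE M21 (42548 of 43626). Intervals cover the spread between libraries, and the tests were tested on simulated data. The genes, lists, and tests were chosen with earlier results of these data known, and all 10 genes, the called genes of each list (at most the 4 largest), and the 3 most similar genes are named. A few listed genes are not reported here. TATAAA, TGACGTCA, and total counts for the lists were added after the data had been seen.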

Additional observations from a re-analysis of the deposited data

Results flagged for a closer look

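In the fit with library sets as a block, the change of Abca1 with 3′SL differed between cells without and with LPS. The change with LPS minus the change without it was −0.78 on the log2 scale (adjusted p = 0.011 over 14308 genes, where 1.55% were called). It had the same direction in 3 of 3 sets, as had 48.6% of all genes. Without the block the adjusted p was 0.505, and none of the other 9 genes was called in either fit. Leaving out set 1 or set 2 removed the call of Abca1 from the block fit. Outside the 10, the block fit also called this interaction for Lpcat2 (−1.15) and for 3 of 7 genes of the LPS check list, with the same sign.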

How the results depend on the processing

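The calls for LPS, 5 of 10 genes against PBS and 5 of 10 on top of 3′SL, stayed within 1.5 times under every alternative run, and leaving out any 1 library gave 5 for both and 0 for the 3′SL comparisons and the interaction. The count for 3′SL against PBS went from 0 to 1 (Abca1) with DESeq2, the replicate block of library sets, the block with DESeq2, the unadjusted p, and without library set 3, and to 2 (Abca1, Ch25h) with the block without set 3. The interaction count went from 0 to 1 (Abca1) with DESeq2, the block, the block with total counts or with DESeq2, and the unadjusted p, and to 2 (Abca1, Ch25h) with the block without set 3. That last fit also gave 1 (Ch25h) for LPS + 3′SL against LPS. Of all 14396 genes it called 323 for 3′SL against PBS, 371 for LPS + 3′SL against LPS, and 457 for the interaction. The sets are a hint from the data, since the labels carry no replicate number. The block changed no other call of these genes, and over all genes it called 406 in place of 0 for 3′SL against PBS, 207 in place of 0 for LPS + 3′SL against LPS, and 222 in place of 0 for the interaction. DESeq2 called 88, 113, and 44. Allowing 2 mismatches gave 0 windows with a DR4 in place of 2. Abca1 on top of 3′SL was not called under total counts, alone (0.48) or with the block (0.48).

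Under total counts, alone and with the block, signs turned for Nr1h2 (LPS −0.29 and −0.28, LPS on top of 3′SL −0.13 and −0.13), Apoe (LPS −0.61 and −0.60, 3′SL −0.082 and −0.057, LPS on top of 3′SL −0.42 and −0.42), Lpcat3 (−0.49 and −0.51, −0.0077 and −0.0093, −0.15 and −0.17), Pltp (LPS −0.36 and −0.39, LPS on top of 3′SL −0.25 and −0.28), and Cyp27a1 (LPS on top of 3′SL −0.019 and −0.043). Without set 1 or set 2, signs turned for Cyp27a1 with LPS (0.015 and 0.044) and Ch25h with 3′SL (−0.21 and −0.053). Leaving out 1 library turned signs for Apoe with LPS (−0.43 to 0.54), 3′SL (−0.45 to 0.48), 3′SL under LPS (−0.48 to 0.55), and LPS on top of 3′SL (−0.42 to 0.54), for Pltp likewise (−0.47 to 1, −0.59 to 0.83, −0.76 to 0.92, −0.59 to 1), for Cyp27a1 with LPS (−0.44 to 0.0099) and 3′SL under LPS (−0.14 to 0.60), for Nr1h2 with 3′SL under LPS (−0.018 to 0.23), and for Ch25h with 3′SL (−0.26 to 1.40). The cause was not tested. Depth limits Ch25h without LPS, where a library held as few as 17 reads.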
